A study of Mus musculus with 12 samples.

Results

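Arg1, Mgl2 and Clec10a, the arginase and the pair of galactose-binding lectins by which alternatively activated mouse macrophages are commonly recognised, were followed across the 4 treatments of a mouse RNA sequencing experiment. They were chosen by gene name and make up 3 of the 11669 genes in the deposited expression table. All 3 were among the 8615 genes that could be tested. The cells carry the name TAMC under the cell line tag, are described as immune cells and have marrow as their tissue, whereas the extraction protocol of the same records mentions retinas. They had been exposed for 24 h to NP-D@MP, NP-D@M, NP@M or PBS, with 3 libraries for each treatment. Neither TAMC nor the letters of the treatment names are explained in the labels. The groups NP-D@MP and NP-D@M are called the groups with D here, and NP@M and PBS those without D.

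Arginase 1, encoded by Arg1, splits arginine into ornithine and urea. It serves the urea cycle in the liver, and in mouse macrophages it is strongly induced by interleukin-4 and interleukin-13 through the interleukin-4 receptor and the transcription factor STAT6. Ornithine feeds the synthesis of polyamines and proline, and the use of arginine by arginase competes with nitric oxide synthesis by Nos2 in classically activated macrophages. Clec10a encodes the macrophage galactose-type lectin MGL1, also called CD301a, and Mgl2 encodes its close relative MGL2, or CD301b. Both are C-type lectins of the cell surface that bind sugars ending in galactose or N-acetylgalactosamine and take up their ligands. Mice carry both lectin genes, whereas humans carry CLEC10A alone.

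Mgl2 and Clec10a are neighbours on mouse chromosome 11. On GRCm38, Mgl2 (ENSMUSG00000040950) lies at chr11:70130329-70137550 and Clec10a (ENSMUSG00000000318) at chr11:70156197-70170834, both on the plus strand and 18.646 kb apart. Asgr1 and Asgr2, which encode the subunits of the liver asialoglycoprotein receptor, lie upstream on the same strand, with 24.141 kb between Asgr2 and Mgl2. Neither is in the expression table, so their levels were not analysed. Arg1 (ENSMUSG00000019987) lies at chr10:24915221-24927484 on the minus strand, and Arg2, the gene of the mitochondrial arginase, on chromosome 12.

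The coding sequences of the lectins are close enough that reads of one can match the other, and how such reads were counted is not given in the sources used here. Between the longest coding sequences of the 2 genes in GENCODE M21 (Mgl2-205 and Clec10a-209), 823 of 910 aligned bases were identical (90.4%). Of all stretches of 36 bases in the annotated transcripts of Mgl2, 17.2% also occurred in those of Clec10a. Of the stretches of Clec10a, 12.1% occurred in Mgl2. With stretches of 100 bases these shares were 3.95% and 2.64%. The longest run shared by both is shown because a read that falls inside it cannot be assigned to either gene by its sequence. It has 183 bases and covers coding positions 550 to 732 of Mgl2 and 502 to 684 of Clec10a.
Shared run, Mgl2 and Clec10a: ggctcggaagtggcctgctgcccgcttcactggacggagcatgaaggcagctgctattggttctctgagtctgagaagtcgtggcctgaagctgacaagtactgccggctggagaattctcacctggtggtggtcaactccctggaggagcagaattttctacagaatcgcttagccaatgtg
Just before it lies the least alike of all aligned stretches of 120 bases without a gap, chosen for that reason. It has 112 identical bases and 8 differences, given in capitals, which are what allows a read there to be told apart. Stretches with a gap were left out of this choice. The window covers coding positions 430 to 549 of Mgl2 and 382 to 501 of Clec10a.
Mgl2: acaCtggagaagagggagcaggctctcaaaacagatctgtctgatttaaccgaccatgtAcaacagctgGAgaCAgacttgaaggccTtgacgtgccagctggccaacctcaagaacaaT
Clec10a: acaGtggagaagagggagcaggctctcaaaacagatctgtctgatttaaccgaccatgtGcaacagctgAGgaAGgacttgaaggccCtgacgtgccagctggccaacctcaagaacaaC
All 3 sequences are written 5′ to 3′ as transcribed. The values of Mgl2 and Clec10a are therefore uncertain by the reads they may share. Arg1 and Arg2 had 64.9% identical bases and shared no stretch of 36 bases.

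The deposited levels were taken as FPKM, a read count per gene length and library size, a unit inferred from the values. Their scale differed between the groups. The reads behind the values could be recovered and came to 14444950 to 17338264 per library. In the deposited values, the implied library size that divides the reads was 0.468 to 0.553 times the recovered reads in the groups with D. It was 2.19 to 2.36 times the recovered reads in the groups without D. Dividing by the recovered reads themselves adds -2.17 to each log2 fold change of NP-D@M over NP@M, before the pseudocount of 1. Levels are therefore given on both scales, and the second, reads per gene length and per recovered reads of the library, is called the level scaled to table reads. Among the libraries without D, PBS replicate 3 and NP@M replicate 2 stood out by their genes at 0, which made up 9.31% and 9.11% of the table. This share was 2.65% to 2.96% in their 4 companions. Log2 fold changes and adjusted p-values come from limma on log2(level + 1) over all 12 libraries, and a gene was called at an adjusted p under 0.05. Whether libraries of 1 treatment came from separate cultures is not stated, and p-values cover only the spread seen between libraries.

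Arg1 was the most abundant of the 3 genes in every library and was about as high under both treatments with D. It had 3420, 4567 and 4576 FPKM in the NP-D@MP libraries and 4143, 4562 and 4162 FPKM in the NP-D@M libraries. Without D it had 456, 349 and 393 FPKM in the NP@M libraries and 466, 402 and 449 FPKM in the PBS libraries. Every library with D lay above every library without D. Within NP-D@M against NP@M alone, 46.3% of the tested genes separated upward, and 44.7% did in NP-D@MP against PBS alone (12.9% and 10.6% scaled to table reads). The share for all libraries with D against all without D was not computed. In contrast, NP-D@MP overlapped NP-D@M and NP@M overlapped PBS. The group means were 4188 ± 665 FPKM in NP-D@MP, 4289 ± 237 in NP-D@M, 399 ± 53.7 in NP@M and 439 ± 33.5 in PBS (SD, n = 3 each). Behind these values stood 66627 to 82904 reads per library in NP-D@MP, 79718 to 82272 in NP-D@M, 27332 to 35877 in NP@M and 31661 to 35746 in PBS. On the second scale, the means were 2031 ± 268 in NP-D@MP, 2229 ± 54.5 in NP-D@M, 933 ± 131 in NP@M and 1007 ± 74.9 in PBS (SD, n = 3 each). The separation of the groups with D from those without D was thus present on both scales and much smaller on the second.

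Mgl2 was higher in every library with D as well, and the shares of separated genes given for Arg1 apply here too. It had 1346, 1518 and 1508 FPKM in the NP-D@MP libraries and 1169.8, 1483 and 1276 FPKM in the NP-D@M libraries. The NP@M libraries had 69.2, 54.9 and 67.2 FPKM and the PBS libraries 64.0, 52.7 and 36.5 FPKM. The lowest of the 12 was PBS replicate 3, one of the libraries with many genes at 0. The means were 1458 ± 96.3 FPKM in NP-D@MP, 1309.6 ± 159 in NP-D@M, 63.7 ± 7.74 in NP@M and 51.1 ± 13.8 in PBS (SD, n = 3 each). These values rest on 24652 to 25897 reads per library in NP-D@MP, 21173 to 24346 in NP-D@M, 4043 to 5294 in NP@M and 2417 to 4610 in PBS. When scaled to table reads, Mgl2 averaged 708 ± 30.6 in NP-D@MP, 679 ± 34.4 in NP-D@M, 149 ± 19.2 in NP@M and 118 ± 35.3 in PBS (SD, n = 3 each). Neither pair of groups that share D or lack it separated on this scale.

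Clec10a had the lowest level of the 3 genes. It had 199.6, 165 and 184 FPKM in the NP-D@MP libraries and 142, 154 and 153 FPKM in the NP-D@M libraries. The NP@M libraries had 11.9, 8.98 and 11.2 FPKM and the PBS libraries 12.2, 8.83 and 5.92 FPKM, again with PBS replicate 3 as the lowest. The 3 NP-D@MP libraries lay above the 3 NP-D@M libraries in FPKM, as 8.58% of the tested genes did. On the table-read scale they overlapped, with 101, 80.2 and 86.3 in NP-D@MP and 78.7, 74.4 and 80.5 in NP-D@M. On that scale NP@M had 27.9, 20.8 and 26.3 and PBS 28.6, 20.8 and 12.97. The means were 183 ± 17.6 FPKM in NP-D@MP, 149.7 ± 6.52 in NP-D@M, 10.7 ± 1.52 in NP@M and 8.99 ± 3.15 in PBS (SD, n = 3 each), and 543 reads were the fewest in any library.

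**Figure D1:**
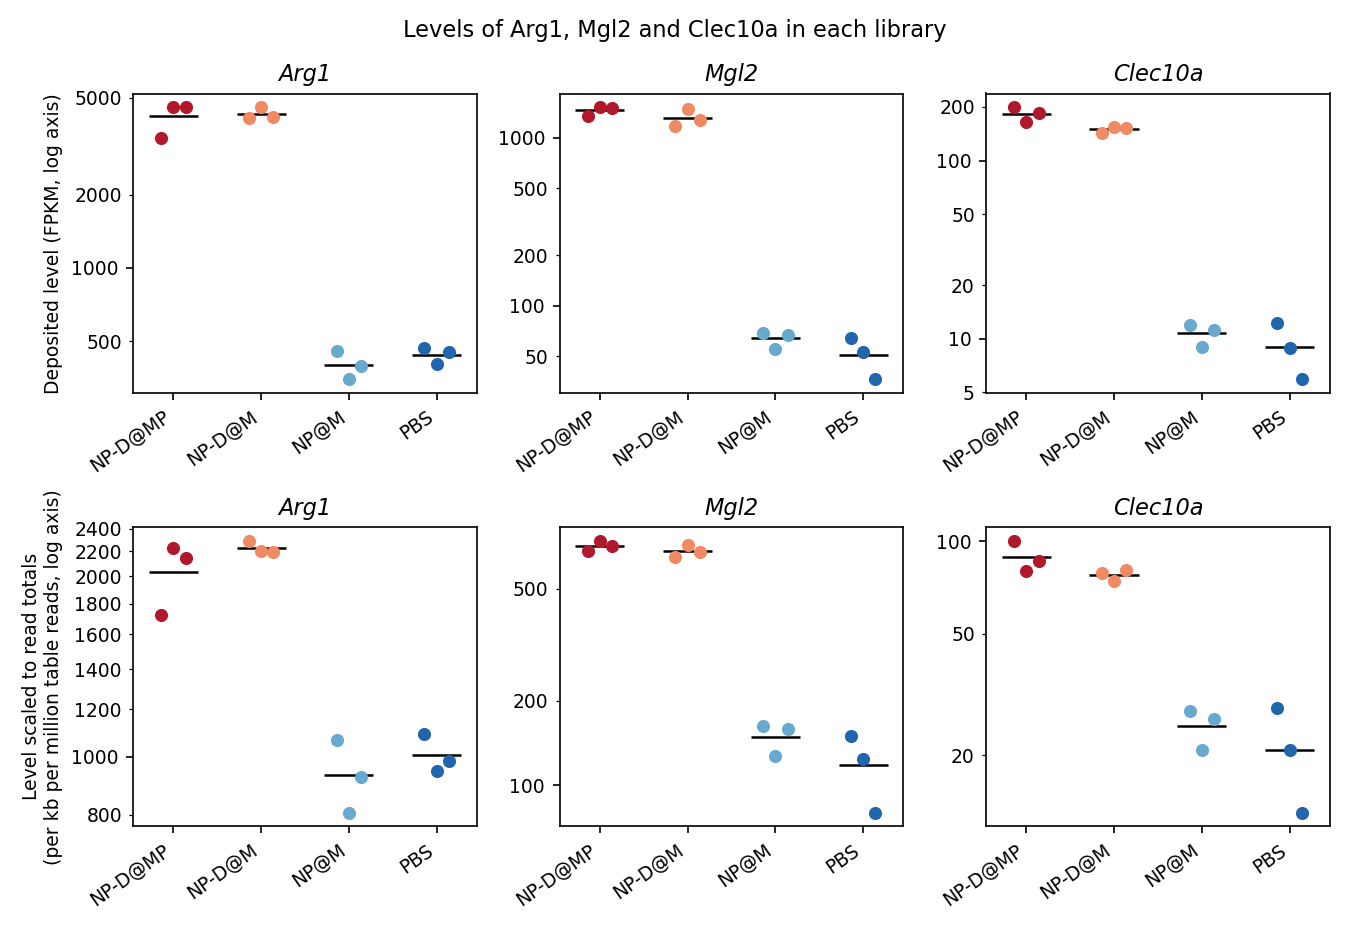
Level of each gene in each of the 12 libraries (points, log axes) with the mean of the 3 libraries of a group (lines), as deposited in FPKM (upper panels) and scaled to table reads (lower panels). The 6 libraries with D lie above the 6 without D for all 3 genes on both scales, and PBS replicate 3 has the lowest Mgl2 and Clec10a, with 36.5 and 5.92 FPKM. Of the tested genes, 46.3% separated upward in NP-D@M against NP@M and 44.7% in NP-D@MP against PBS (12.9% and 10.6% scaled to table reads).

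The names of NP-D@M and NP@M differ by D alone, and this comparison asks what goes with D. All 3 genes were called higher in NP-D@M, in a comparison in which 45.2% of the tested genes were called higher and 46% lower. A call by itself therefore says little here, and the sizes carry the description. Arg1 rose by 3.43 on the log2 scale (95% interval 3.01 to 3.85, adjusted p = 9.878e-08), Mgl2 by 4.34 (3.85 to 4.83, adjusted p = 8.478e-08) and Clec10a by 3.70 (3.20 to 4.19, adjusted p = 1.526e-07), while the median of all tested genes was 0.16. A larger log2 fold change was found in 235 of the 8615 tested genes for Arg1, in 16 for Mgl2 and in 125 for Clec10a. Because RNA was taken in bulk, more cells that express a gene and more RNA of that gene per cell cannot be told apart.

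With levels scaled to table reads, the 3 genes were still called higher in NP-D@M than in NP@M, where 9.12% of the tested genes were called higher and 61.7% lower. Arg1 rose by 1.26 (adjusted p = 5.141e-05), Mgl2 by 2.19 (adjusted p = 3.917e-06) and Clec10a by 1.61 (adjusted p = 0.000118), against a median of -1.47 over all tested genes. Quantile normalization, which forces the same distribution of levels on every library, ended the call of Arg1, with 0.21 and an adjusted p of 0.302. Mgl2 and Clec10a stayed called under it, at 1.76 and 2.26.

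In NP-D@MP against PBS, all 3 genes were called higher too, next to 45.7% of the tested genes called higher and 45.8% lower. Arg1 rose by 3.24 (95% interval 2.82 to 3.66, adjusted p = 1.3e-07), Mgl2 by 4.84 (4.36 to 5.33, adjusted p = 7.625e-08) and Clec10a by 4.25 (3.75 to 4.75, adjusted p = 8.117e-08). Only 11 tested genes had a larger log2 fold change than Mgl2 and 43 a larger one than Clec10a, against 426 for Arg1. Scaled to table reads, the changes were 1.00 for Arg1 (adjusted p = 0.0003165), 2.62 for Mgl2 (adjusted p = 8.472e-07) and 2.11 for Clec10a (adjusted p = 1.341e-05), with 9.01% of the tested genes called higher, 62.4% lower and a median of -1.48. With quantile normalization Arg1 was not called, at -0.08 (standard error 0.175, limma adjusted p = 0.694), so no direction is read from it. Mgl2 and Clec10a were at 2.25 and 2.83 under it and remained called.

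None of the 3 genes was called between the groups that share D, NP-D@MP and NP-D@M, where 0% of the tested genes were called (0 of 8615, with 428 at an unadjusted p under 0.05 and 1 call by voom on the recovered reads). The log2 fold changes were -0.05 for Arg1 (95% interval -0.47 to 0.38), 0.16 for Mgl2 (-0.33 to 0.65) and 0.28 for Clec10a (-0.21 to 0.78), each with an adjusted p of 1. Changes inside these intervals remain compatible with the data, and the smallest change that 3 libraries a group could detect was not computed. Without NP-D@MP replicate 1, which had the lowest Arg1 of the libraries with D, the Arg1 value was 0.09. The groups NP@M and PBS did not give a call for any of the 3 genes either, with 0.0116% of the tested genes called (1 of 8615, Gm24366, named after its values were seen, and 27 at an unadjusted p under 0.05). There the log2 fold changes were -0.14 for Arg1 (-0.57 to 0.28), 0.34 for Mgl2 (-0.14 to 0.83) and 0.27 for Clec10a (-0.23 to 0.77), all with an adjusted p of 1. Without PBS replicate 3, Mgl2 was at 0.12 and Clec10a at 0.028, and without NP@M replicate 2, Arg1 was at -0.050.

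**Figure D2:**
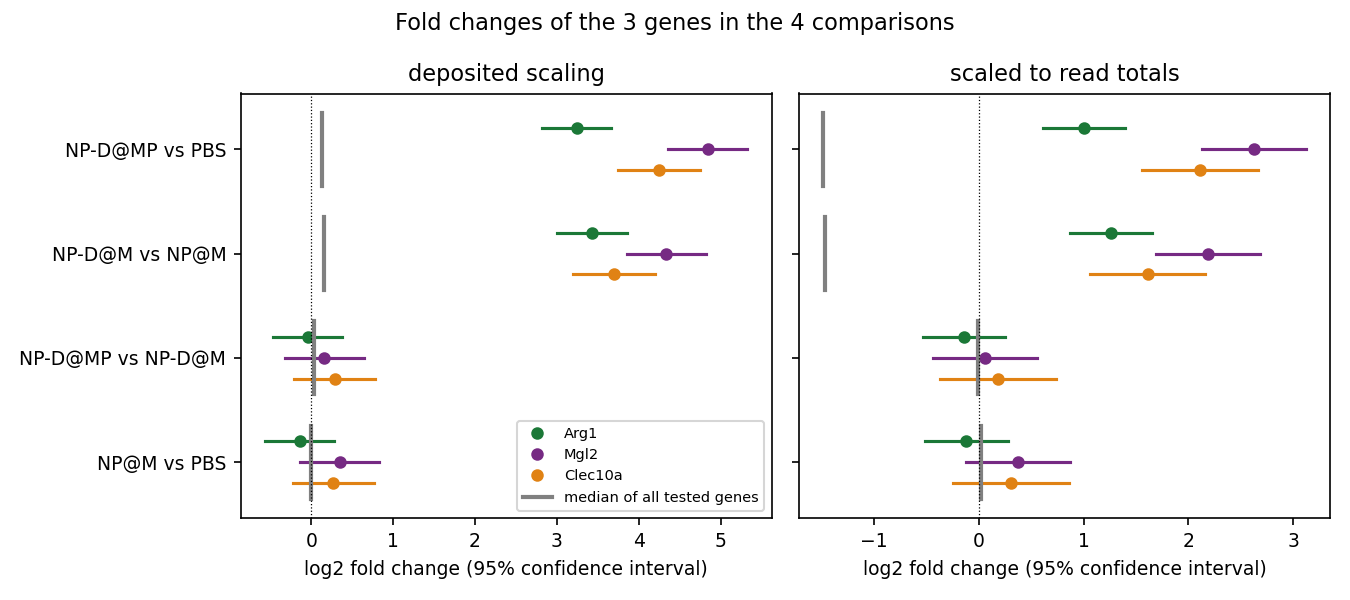
Log2 fold change of each gene with its 95% confidence interval (limma) in the 4 comparisons, as deposited (left) and scaled to table reads (right), with the median of all 8615 tested genes as a grey bar. The intervals of all 3 genes lie above 0 in both comparisons of a group with D with one without D, and include 0 in NP-D@MP vs NP-D@M and in NP@M vs PBS.

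Ranks within a library do not depend on the scale, and Arg1 was near the top of the order in every library. Ordered by FPKM among the tested genes, with 1 as the highest, Arg1 stood at ranks 29 to 37 in the libraries with D and 28 to 42 in those without D, so the ranges overlapped. Mgl2 stood at 84 to 97 with D, against 322 to 498 without D. Clec10a stood at 478 to 586 with D, against 1798 to 3070 without D. Arg1 was thus among the most abundant genes of the table under every treatment, at 0.384% to 0.511% of the table reads with D and 0.180% to 0.243% without D, whereas both lectins moved up the order in the libraries with D. So near the top, a rank leaves little room to move up, although the share of reads of Arg1 differed. How many other tested genes separate by rank was not counted, and 91.2% of the tested genes were called in NP-D@M against NP@M.

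**Figure D3:**
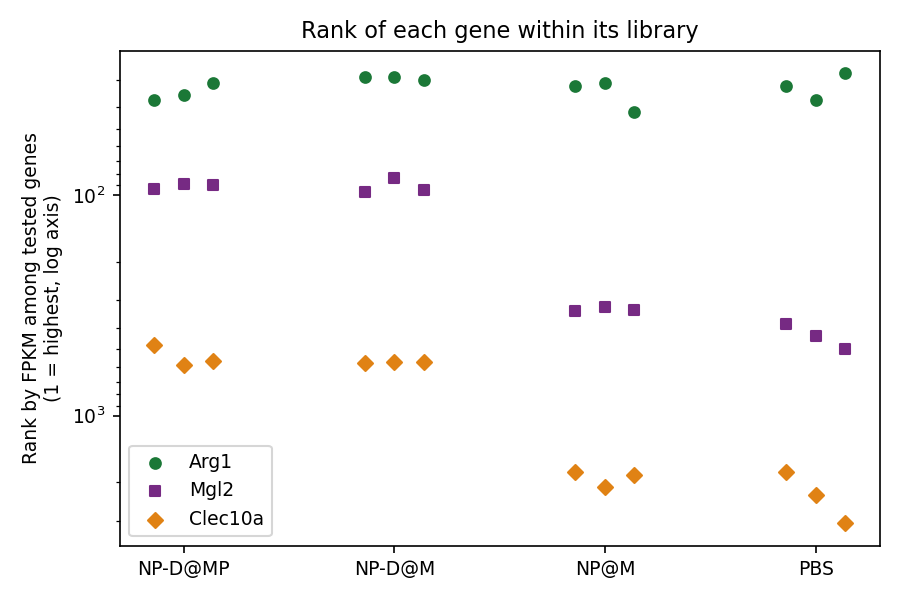
Rank of each gene by FPKM among the 8615 tested genes of its library (log axis, 1 = highest, drawn at the top), for the 3 libraries of each group. Arg1 keeps to ranks 28 to 42 in all groups, while the Mgl2 and Clec10a points of the groups with D lie above those of the groups without D. Separation by rank was not counted for other genes.

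The ratio of one gene to another within a library is likewise free of the library's scale. Log2 ratios of levels per length, 6 in number, were compared between the 6 libraries with D and the 6 without D by exact 2-sided permutation tests, whose smallest possible p is 0.002165, and the p-values were adjusted over the 6. Mgl2 was 8.05 times Clec10a in NP-D@MP and 8.73 times in NP-D@M, against 5.97 times in NP@M and 5.79 times in PBS. The log2 ratio was 3.06 ± 0.178 with D, against 2.55 ± 0.086 without D (SD, n = 6 each), a difference of 0.51 with no overlap (exact permutation p = 0.002165, the smallest possible, adjusted p = 0.003247). The 2 lectins share reads as described above, and the part of that in this ratio was not tested. How many other gene pairs separate between the groups was not counted for any of the 6 ratios. In NP-D@M against NP@M, 91.2% of the tested genes were called.

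Arg1 changed less than either lectin between the groups with D and those without. It was 2.86 times Mgl2 in NP-D@MP and 3.29 times in NP-D@M, against 6.27 times in NP@M and 9.07 times in PBS. The log2 ratio of Arg1 to Mgl2 was 1.61 ± 0.159 with D, against 2.89 ± 0.383 without D (SD, n = 6 each), a difference of -1.28 (exact permutation p = 0.002165, adjusted p = 0.003247). Arg1 to Clec10a gave 4.67 ± 0.296 with D, against 5.45 ± 0.41 without D, a difference of -0.77 with the same p-values by the exact permutation test. Both ratios were without overlap, which was not counted for other gene pairs, and PBS replicate 3 had the highest value of each.

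Macrophage markers moved in the same direction as the 3 genes. All 17 monocyte and macrophage markers listed for this purpose were in the table and 16 were tested. Of these, 14 rose and 2 fell in NP-D@M relative to NP@M (8 and 4 scaled to table reads). Of all tested genes, 45.2% were called higher and 46% lower (9.12% and 61.7% scaled to table reads). The summed level of the markers was 36408 to 38755 FPKM in NP-D@MP, 31350 to 41781 in NP-D@M, 2971 to 3552 in NP@M and 2971 to 4375 in PBS. On the table-read scale the sums were 18082 to 18361 in NP-D@MP, 16530 to 20161 in NP-D@M, 6876 to 8348 in NP@M and 6999 to 9578 in PBS. Lyz2, which encodes lysozyme and is high in all myeloid cells, held 74.1% to 79.6% of the sum with D and 61.0% to 71.7% without D. Ms4a7, C1qb and Lyz2 were among the markers with the smallest adjusted p, at 4.29, 3.59 and 3.65 on the log2 scale. The part of these markers in the change of the 3 genes was not tested beyond the ratios that follow.

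Per unit of the summed markers, the lectins still differed and Arg1 did not pass the test. The log2 ratio of Mgl2 to the marker sum was -4.71 ± 0.090 with D, against -5.91 ± 0.494 without D, a difference of 1.19 (exact permutation adjusted p = 0.003247, n = 6 each). That of Clec10a was -7.77 ± 0.191 with D, against -8.46 ± 0.541 without D, a difference of 0.69 with overlapping groups (exact permutation p = 0.004329, adjusted p = 0.005195). That of Arg1 was -3.10 ± 0.181 with D, against -3.02 ± 0.200 without D, a difference of -0.08 (exact permutation p = 0.4589). Without PBS replicate 3 the differences were 0.995 for Mgl2, 0.475 for Clec10a and -0.137 for Arg1, with the same calls. Arg1 depended on 1 marker here: with Lyz2 left out of the sum, its difference was 0.56 (exact permutation adjusted p = 0.004329).

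**Figure D4:**
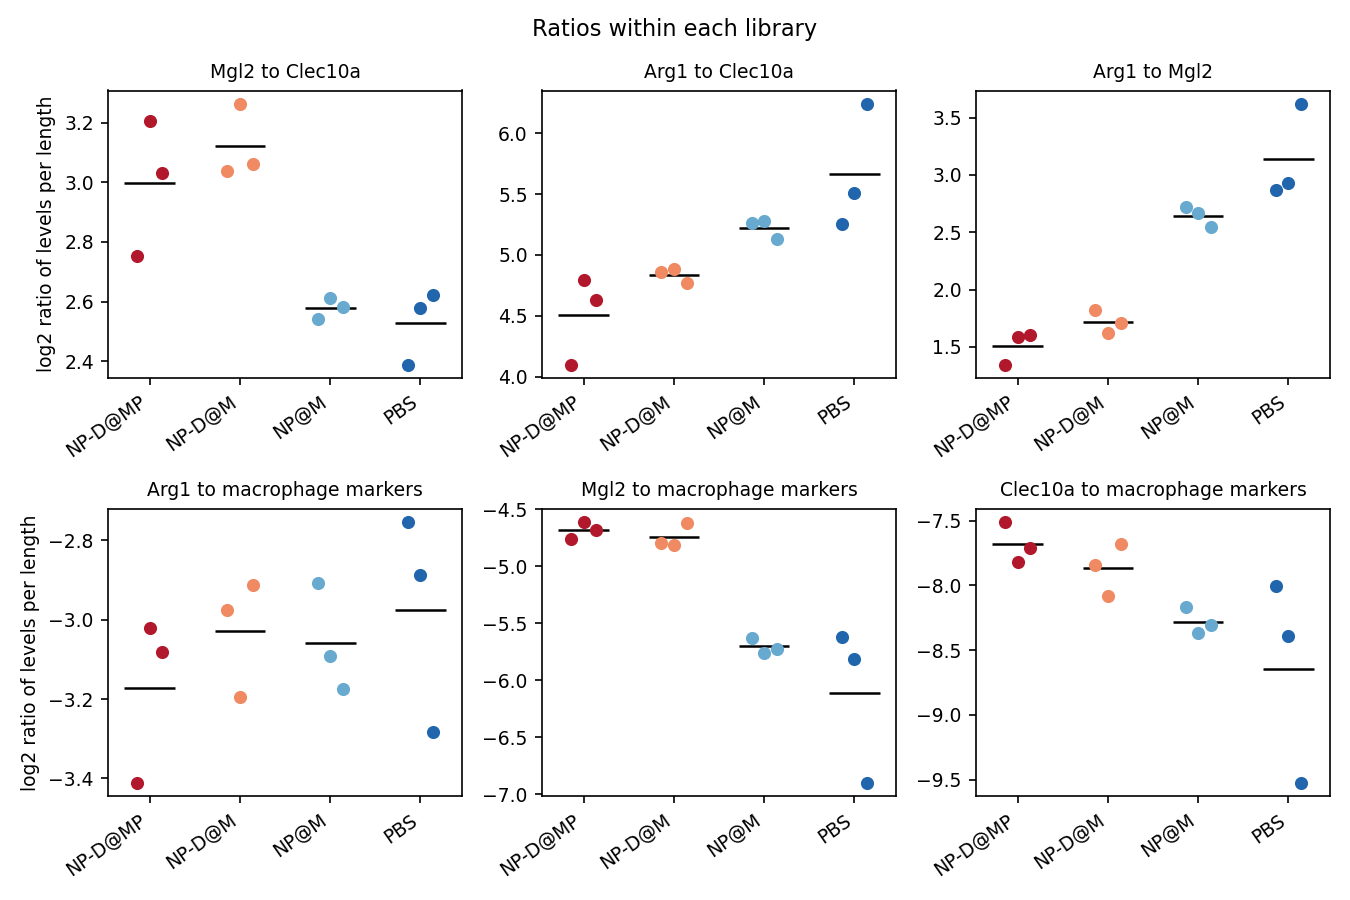
Log2 ratios of levels per length within each of the 12 libraries (points) with group means (lines), among the 3 genes (upper panels) and to the summed macrophage markers (lower panels). Mgl2 to Clec10a and Mgl2 to macrophage markers are higher in all libraries with D, Arg1 to either lectin is lower in them, and Arg1 to macrophage markers overlaps between all groups.

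Markers of other cells were also present, and those of platelets and of neutrophils had large summed levels. The counts in NP-D@M relative to NP@M below stand against 45.2% of all tested genes called higher and 46% lower (9.12% and 61.7% scaled to table reads). Of 15 neutrophil and granulocyte precursor markers 13 were tested, and 4 rose and 4 fell in NP-D@M relative to NP@M (0 and 11 scaled to table reads). Without PBS replicate 3 and NP@M replicate 2, 4 rose and 8 fell. Their sum was 5196 to 7807 FPKM in NP-D@MP, 4933 to 7217 in NP-D@M, 1421 to 2113 in NP@M and 1958 to 2354 in PBS. On the scale of table reads the sums were 2432 to 3806 in NP-D@MP and 2730 to 3805 in NP-D@M, against 3289 to 4965 in NP@M and 4612 to 5270 in PBS, so that both groups with D lay below PBS and overlapped NP@M. Of 9 tested dendritic cell markers, 3 rose and 4 fell (1 and 5 scaled to table reads), and these cells express both lectins in mouse. Their sum was 1542 to 1737 FPKM in NP-D@MP and 1472 to 1822 in NP-D@M, against 328 to 551 in NP@M and 412 to 533 in PBS, while the sums scaled to table reads overlapped, at 752 to 879 with D and 758 to 1295 without D. Of 3 tested eosinophil, basophil and mast cell markers, 1 fell (all 3 scaled to table reads). Of 10 listed erythroid and megakaryocyte markers, 4 were in the table, and all 4 rose (2 rose and 1 fell scaled to table reads). The listed erythroid genes were absent from the table. The platelet chemokine genes Ppbp and Pf4 rose on both scales, and Pf4 is also expressed by macrophages. Itga2b rose by 1.02 but fell by 0.74 scaled to table reads. Gp9 rose by 0.79 and was at 0.35 without a call on that scale. The sum of the 4 was 20396 to 28667 FPKM with D and 484 to 1211 FPKM without D (10754 to 14457 and 1120 to 2831 scaled to table reads). A single gene reached up to 24699 FPKM, so this sum rests largely on few genes. T and NK cell markers gave 1 tested gene, Cd4, higher in NP-D@M on both scales. Colon epithelial markers gave 1, Cdh1, which rose by 1.71 in FPKM but was at -0.31 without a call scaled to table reads (adjusted p = 0.190). B cell, fibroblast and retina markers gave 0 tested genes, and 0 of the 10 listed hepatocyte markers were in the table. The summed retina markers reached at most 0.143 FPKM in any library. The part of these cells in the levels of the 3 genes was not tested.

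Around Arg1, the genes of arginine and polyamine metabolism were mostly higher in NP-D@M than in NP@M as deposited. Of 16 tested members, 12 rose and 3 fell, against 45.2% and 46% of all tested genes. Their median log2 fold change was 1.48 against 0.16 over all tested genes. On the table-read scale, 2 rose and 8 fell, against 9.12% and 61.7% of all tested genes, with a median of -0.55 against -1.47. On that scale 5 rose and 9 fell without PBS replicate 3 and NP@M replicate 2. Slc7a1, which encodes a cationic amino acid transporter for arginine entry, fell by 1.93 on the log2 scale and by 3.58 scaled to table reads. Slc7a2, the gene of another such transporter and named after its values were seen, rose by 1.21 but fell by 0.93 scaled to table reads. Sms, the spermine synthase gene, rose by 2.12 and by 0.57 scaled to table reads. Sat1, Oat and Gatm, which act in polyamine acetylation, ornithine breakdown and creatine synthesis, rose by 2.34, 2.47 and 2.54, and had 0.22, 0.37 and 0.50 without a call scaled to table reads. Gatm was called there without NP@M replicate 2, at 0.71, and Oat without that library and PBS replicate 3, at 0.50. Odc1, which makes putrescine from the ornithine that arginase yields, rose by 0.60 (adjusted p = 0.0189) but fell by 1.42 scaled to table reads. Its call in FPKM was lost without NP-D@M replicate 1, at 0.42, and without NP@M replicate 1 or 3, at 0.54 and 0.52.

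Arg2 went the other way from Arg1. It averaged 18.2 ± 5.29 FPKM in NP-D@MP and 21.5 ± 2.49 in NP-D@M, against 39.8 ± 0.476 in NP@M and 37.4 ± 1.88 in PBS (SD, n = 3 each). In NP-D@M relative to NP@M it fell by 0.87 on the log2 scale (adjusted p = 0.001963) and by 2.96 scaled to table reads. Nos2, whose product uses the same substrate, was below the filter on low values, with 0 to 0.577 FPKM in the libraries with D and 0.141 to 0.860 FPKM in those without D.

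The wider list of alternative activation genes moved mostly upward, with exceptions. Of 30 tested members, 25 rose and 4 fell in NP-D@M relative to NP@M, against 45.2% and 46% of all tested genes, with a median of 2.99 against 0.16. Of the same members scaled to table reads, 14 rose and 6 fell, against 9.12% and 61.7% of all tested genes, with a median of 1.00 against -1.47. Without the 3 genes themselves, 22 of 27 rose and 4 fell (11 and 6 scaled to table reads). Gpnmb, a glycoprotein of phagocytic macrophages, rose by 3.97 (1.80 scaled to table reads) and Stab1, a scavenger receptor, by 3.46 (1.45). Chil3, which encodes the chitinase-like protein Ym1, averaged 12865 ± 3527 FPKM in NP-D@MP and 10923 ± 2946 in NP-D@M, against 1194 ± 116 in NP@M and 1201 ± 371 in PBS (SD, n = 3 each), and rose by 3.16 (1.00, adjusted p = 0.006107, scaled to table reads). Mrc1, the mannose receptor gene, and Retnla, which encodes the secreted protein RELM-alpha, rose by 2.83 and 2.98 in FPKM. Scaled to table reads they were not called, at 0.69 (adjusted p = 0.221) and 0.82 (adjusted p = 0.273). NP@M replicate 2 moved both: without it and on that scale, Mrc1 was at 1.03 (adjusted p = 0.0952, and called at 0.00456 with PBS replicate 3 left out as well) and Retnla at 0.048 (adjusted p = 0.941). Egr2, a transcription factor of alternatively activated macrophages, fell by 3.36 (4.93 scaled to table reads).

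The list of genes around the interleukin-4 receptor and STAT6, a pathway known to induce all 3 members, was mostly lower in the libraries with D. Its counts do not separate genes that drive the pathway from inhibitors such as Socs1 and Ptpn6. Of 24 tested members of the interleukin-4 receptor and STAT6 list, 4 rose and 19 fell in NP-D@M relative to NP@M, against 45.2% and 46% of all tested genes, with a median of -1.73 against 0.16. Scaled to table reads 1 rose and 20 fell, against 9.12% and 61.7% of all tested genes. Stat6 averaged 8.97 ± 0.543 FPKM in NP-D@MP and 7.95 ± 0.659 in NP-D@M, against 34.3 ± 2.65 in NP@M and 33.1 ± 3.11 in PBS (SD, n = 3 each), and fell by 1.98 (adjusted p = 5.416e-07). Il4ra, the gene of the receptor's alpha chain, averaged 2.31 ± 0.771 FPKM in NP-D@MP and 2.02 ± 0.149 in NP-D@M, against 16.6 ± 3.71 in NP@M and 17.2 ± 6.65 in PBS, and fell by 2.52 (adjusted p = 1.302e-05). The transcription factor genes Irf4 and Bhlhe40 fell by 3.01 and 4.30, and Ptpn6, which encodes the phosphatase SHP-1, by 3.47. Cebpb, a transcription factor gene needed for Arg1 induction in mouse macrophages, fell by 2.93 with a wide interval (-5.60 to -0.27, adjusted p = 0.0379), and was not called in NP-D@MP relative to PBS, at -2.32 (adjusted p = 0.0874). It had 22.3 FPKM in NP@M replicate 2 and 14.05 FPKM in PBS replicate 3, within the 10.3 to 55.6 FPKM of the libraries with D, against 227 to 320 FPKM in the other libraries without D. Without PBS replicate 3 its value in NP-D@MP relative to PBS was -3.77 (adjusted p = 0.003485), and its call in NP-D@M relative to NP@M was lost without any 1 of the 6 libraries compared except NP@M replicate 2, at an adjusted p of 0.0565 to 0.128. On the scale of table reads Cebpb was called in both, at -4.996 in NP-D@M relative to NP@M and -4.46 in NP-D@MP relative to PBS. Pparg fell by 0.54 (adjusted p = 0.01227). Il2rg, the common gamma chain gene, and Epas1, which encodes HIF-2alpha, were among the 4 that rose, at 2.48 and 2.69. In levels scaled to table reads Epas1 was still called, at 0.81, and Il2rg was not, at 0.36 (0.44 and called without PBS replicate 3 and NP@M replicate 2). RNA levels of a receptor or factor give no measure of its activity.

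Beside Mgl2 and Clec10a, 21 myeloid C-type lectins were tested. Of these, 15 rose and 2 fell in NP-D@M relative to NP@M, against 45.2% and 46% of all tested genes, with a median of 1.09 against 0.16. Scaled to table reads, 4 rose and 7 fell, against 9.12% and 61.7% of all tested genes, with a median of -0.18 against -1.47. Cd302, Clec4n (dectin-2) and Clec4d rose by 3.13, 3.71 and 3.48, and by 1.00, 1.55 and 1.33 scaled to table reads. Of the relatives of the asialoglycoprotein receptor, 3 were tested and the 2 that rose were Mgl2 and Clec10a themselves. Classical activation genes gave 8 that rose and 5 that fell of 18 tested, against 45.2% and 46% of all tested genes, with a median of 0.67. Scaled to table reads 1 rose and 10 fell, against 9.12% and 61.7% of all tested genes. Acod1, which makes itaconate, and the interferon regulatory factor gene Irf1 fell by 2.95 and 2.34. Il12b, a subunit gene of interleukin-12, rose by 2.43 in NP-D@M relative to NP@M but had 0.34 without a call in NP-D@MP relative to PBS (adjusted p = 0.298).

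The same lists were counted in NP-D@MP against PBS, where 45.7% of all tested genes were called higher and 45.8% lower (9.01% and 62.4% scaled to table reads). Alternative activation genes gave 26 higher and 4 lower of 30 (14 and 6 scaled to table reads). Arginine and polyamine genes gave 11 and 3 of 16, and the myeloid lectins 15 and 2 of 23, but scaled to table reads more members were lower than higher, with 2 higher and 8 lower and with 5 higher and 8 lower. The interleukin-4 receptor and STAT6 list gave 4 higher and 17 lower of 24 (1 and 20 scaled to table reads). Classical activation genes gave 4 higher and 9 lower of 18 (0 and 14 scaled to table reads). In NP-D@MP against NP-D@M and in NP@M against PBS, 0 members of any of these lists were called by limma, on either scale. No list was tested as a set, and nothing particular to a list is read from these counts.

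**Figure D5:**
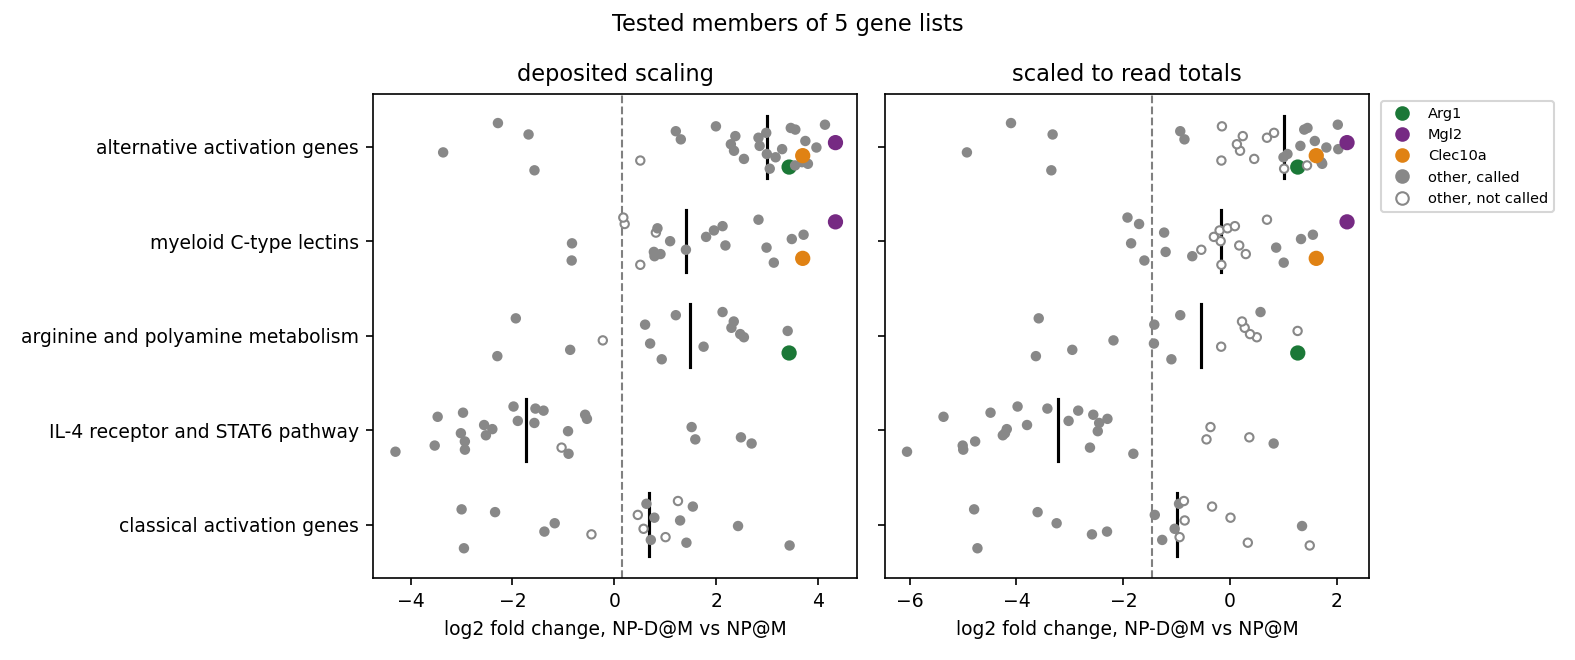
Log2 fold change in NP-D@M vs NP@M of each tested member of 5 gene lists (points, open where not called) with the median of the list (black bar) and of all tested genes (dashed line), as deposited (left) and scaled to table reads (right). Arg1, Mgl2 and Clec10a lie above the median of each list they belong to, and the interleukin-4 receptor and STAT6 list lies mostly below 0 on both scales, with medians of -1.73 and -3.22.

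The genes with the profile most like each of the 3 were found by the root mean square difference between log2(FPKM + 1) profiles over the 12 libraries, each centred on its own mean, among 3747 tested genes of at least 5 FPKM on average. For Arg1 they were Tmem50a (0.123), Akr1b3 (0.130) and Gcsh (0.133), which encode a membrane protein, an aldose reductase and a protein of the glycine cleavage system. For Mgl2 they were the chemokine gene Ccl6 (0.303), Wfdc17 (0.315) and Clec10a (0.333). For Clec10a they were Ppic (0.193), Fcer1g (0.209), which encodes the shared gamma chain of Fc receptors, and Prdx4 (0.216), a peroxiredoxin gene. Mgl2 came only at rank 62 for Clec10a, and Arg1 at rank 201 for Mgl2 and 171 for Clec10a. All these profiles share the 12 libraries and their scaling, so likeness is given as a description.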

How the data were processed

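The 12 libraries were prepared from total RNA, with a TruSeq kit per the labels' protocols. Levels were taken in FPKM as deposited by the authors (11669 genes), and this unit was inferred from the values because the file's header names none. Values times gene length fell on steps of 1 size in each library, within 0.05 of a whole number of steps for 100% of values, and the number of steps was taken as the recovered reads. The factor between libraries, the aligner's settings, the counting and the read length are not given in the sources used here. Bowtie 0.12.2 and mm8 are named, without a role, in the submitters' processing notes. The coordinates of Arg1, Mgl2 and Clec10a in the table equal those of GENCODE M21 on GRCm38, which is the build used for positions. The choice of genes for the table is not described, and p-values hold only within it.

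Genes of at least 1 FPKM in at least 3 libraries were tested. The model, run in limma 3.58.1 under R 4.3.3, took log2(FPKM + 1) and 4 group means over the 12 libraries, with trend and robust set. P-values were 2-sided, with Benjamini-Hochberg adjustment within each comparison over 8615 genes. The pseudocount of 1 understates changes of low genes. Ratios used reads per length with 0.5 added to the reads, and exact permutation tests from scipy 1.17.1. The fit was first run on simulated data in which few genes changed and the groups had the same scale. That run therefore does not bear on the difference in scale between the groups with and without D. Sequences were read from the GENCODE M21 transcripts and aligned with Biopython 1.88. All columns were matched to samples by name.

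The members, the lists (arginine and polyamine metabolism, alternative and classical activation, interleukin-4 receptor and STAT6, lectins, cell markers) and the tests were chosen with earlier results of these data known. Named from each list are up to 6 called genes by smallest adjusted p in NP-D@M against NP@M, with Arg2, Nos2, Asgr1, Asgr2, Il4ra, Stat6, Mrc1, Retnla, Chil3, Odc1, Cebpb and Pparg in any case, and 3 genes most like each member. Not every gene so named is described. Alternatives were read totals, quantile normalization, equal medians, no filter, a filter of 5 FPKM, a pseudocount of 0.1, limma without trend, voom on recovered reads, only the 6 libraries compared, and each library left out.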

Additional observations from a re-analysis of the deposited data

Results flagged for a closer look

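In 7 of 18 sets of 6 libraries (6 log2 ratios and 3 levels, each with D and without D), 1 library lay far from the rest, with a gap to its neighbour of more than 0.625 of the whole range. Chance flags about 1 in 20 independent sets, and these sets share libraries and genes, so that rate does not apply to their number. PBS replicate 3 accounted for 4 of them. Its log2 ratio of Arg1 to Clec10a was 6.24 and that of Arg1 to Mgl2 was 3.62, both the highest without D. Its log2 ratios of Mgl2 and of Clec10a to the macrophage markers were -6.91 and -9.53, both the lowest of all. This library also had 9.31% of its genes at 0, and the part of that in its ratios was not tested.

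NP-D@MP replicate 1 was low for Arg1 among the libraries with D, at 11.7 on the log2(FPKM + 1) scale, and had the lowest log2 ratio of Arg1 to Clec10a, at 4.10. PBS replicate 1 had the lowest log2 ratio of Mgl2 to Clec10a without D, at 2.39.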

How the results depend on the processing

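The 3 genes stayed called in both comparisons of a group with D with one without D under every alternative run other than quantile normalization. That run left Arg1 without a call, at 0.21 in NP-D@M against NP@M and at -0.079 in NP-D@MP against PBS. Without 1 library at a time, Arg1 ranged from -0.12 to 0.093 in NP-D@MP against NP-D@M, above 0 only without NP-D@MP replicate 1. In NP@M against PBS these ranges were -0.24 to -0.050 for Arg1, 0.12 to 0.52 for Mgl2 and 0.028 to 0.49 for Clec10a. The genes called in NP-D@MP against NP-D@M numbered 0, against 8 with no filter, 2 with a pseudocount of 0.1, 1 with voom, 17 without both PBS replicate 3 and NP@M replicate 2, and 0 to 4 without 1 library, the 4 without NP-D@MP replicate 2. In NP@M against PBS the count of 1 became 0 with quantile normalization, no filter, a filter of 5, a pseudocount of 0.1, without trend and robust, with voom, with only the 6 libraries compared and without those 2 libraries, and was 0 to 1 without 1 library. A filter of 5 FPKM tests fewer genes and left 4422 of 7855 calls in NP-D@M against NP@M and 4447 of 7882 in NP-D@MP against PBS.

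In NP-D@M against NP@M alone, the log2 ratio differences were 0.54 for Mgl2 to Clec10a, -0.38 for Arg1 to Clec10a, -0.93 for Arg1 to Mgl2, and, to the macrophage markers, 0.030 for Arg1, 0.96 for Mgl2 and 0.41 for Clec10a. In NP-D@MP against PBS alone they were 0.47, -1.16 and -1.63, and, to the markers, -0.197 for Arg1, 1.43 for Mgl2 and 0.96 for Clec10a. With 3 libraries a group the exact permutation p cannot go below 0.1. Arg1 to the markers without Lyz2 gave 0.56. The cause was not tested for any of these. Leaving out libraries on the scale of table reads and for single genes of the lists was added after seeing the data. Of the calls in NP-D@M against NP@M, 49.6% were higher as deposited, 12.9% scaled to table reads and 57.2% with equal medians. In NP-D@MP against PBS these shares were 49.95%, 12.6% and 56.9%. No paired analysis was possible because the replicate numbers only follow the order of the samples and pair nothing across groups.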
